A study of Mus musculus with 46 samples.

Results

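DNA mismatch repair removes bases that were wrongly paired during replication, and the replicative polymerases make few such errors because they proofread what they have copied. The transcripts of 7 genes of these systems were followed in MC-38 mouse colon carcinoma cells and in the tumors that these cells formed. They were Msh6, Msh3, Pms2, Mlh3, Exo1, Pole and Pold1, chosen by name as mismatch repair and replicative polymerase genes from the 48795 genes of the expression table. All 7 had a row in the table and all 7 passed the filter on low values in every comparison. MC-38 is known as a hypermutated line, and the levels of its repair and proofreading transcripts are therefore of interest when it is used as a model of PD-1 blockade.

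In the pathway, MutS-type dimers find the error. Msh6 is the subunit that recognizes base mismatches and the shortest loops, and Msh3 the subunit that recognizes longer insertion and deletion loops. A MutL-type dimer is then recruited, in which Pms2 is the endonuclease that nicks the new strand, while Mlh3 is best known for its role in meiotic crossing over and has a minor role in repair. Exo1 is the exonuclease that removes the stretch of new strand holding the error. Pold1 is the catalytic and proofreading subunit of DNA polymerase delta, which copies the lagging strand and fills the repaired gap. Pole is the catalytic and proofreading subunit of DNA polymerase epsilon, which copies the leading strand.

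RNA sequencing of 46 samples in 8 groups was used. MC-38 cells in culture (n = 3) and untreated baseline tumors from WT mice (n = 3, time of excision not given in the labels) had no antibody. WT mice received isotype antibody or the anti-mouse PD-1 antibody muDX400 (PD-1 Ab) at 5 mg/kg, and tumors were taken after 1 dose (labelled 4 days, day 11 after implant, n = 5 for each antibody) or 2 doses (labelled 8 days, day 15 after implant, n = 5 for each antibody). PD-1cKO mice (n = 10) carried Pdcd1 with exons 2 and 3 flanked by loxP sites together with a tamoxifen-inducible Cre driven from the ROSA26 locus. These mice and their WT littermates (n = 10) all received tamoxifen at 40 mg/kg on 5 consecutive days. Their tumors are labelled day 28, which the study's main expression figure also gives, although its methods give day 22. All mice were females 8 to 10 weeks old on the C57BL/6NTac background. The implanted MC-38 cells did not carry the Cre or the loxP sites, so in every tumor the malignant cells were those of the same line, while the host, the antibody, the tamoxifen and the day differed between experiments or groups.

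Values are FPKM, fragment counts that the authors scaled to transcript length and to the mapped fragments of the library. FPKM is per length, so levels may be compared between genes. Fold changes are differences of log2(FPKM + 0.1), tested with limma across all genes that passed the filter, and a gene was called when its Benjamini-Hochberg adjusted p was under 0.01. A few libraries stood apart. In isotype 1-dose tumor 1, mitochondrial genes took 54.6% of the summed FPKM, compared to 0.169% to 7.65% in the other 45 samples, and its median-of-ratios factor (the typical level of a gene relative to the other samples) was 0.429. That factor was 0.640 to 1.01 in the 20 PD-1cKO and WT tumors and 1.1205 to 1.26 in the remaining 25 samples, so levels from the antibody and the conditional knockout experiments are not on a common scale. PD-1cKO tumors 4 and 8 stood apart in the genes of DNA replication, as described with the comparison they enter. Pdcd1 itself did not check the PD-1cKO label, since the gene-level value was 8.29 FPKM (median, range 5.05 to 19.95, n = 10) in PD-1cKO and 3.01 FPKM (range 1.71 to 7.02, n = 10) in WT tumors. The other marker check concerned the line, whose cultures had a summed level of 0.639 to 0.754 FPKM over 8 epithelial markers, with Cdx2 and Cldn4 at 0 in all 3. The fibroblast markers Pdgfra (37.0 FPKM), Col3a1 (36.6), Pdgfrb (15.3) and Dcn (15.0, means of the 3 cultures) were measured in the cultured cells themselves. The other fibroblast markers of the list were lower there, Col1a1 at 6.24, Col1a2 at 0.943, Fap at 0.0858 and Lum at 0.0176 FPKM. Epithelial markers therefore did not mark the MC-38 cells in the tumors, and Pdgfra, Col3a1, Pdgfrb and Dcn were not free of them.

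The genes lie on 6 mouse chromosomes of the GRCm38 build. Msh6 (ENSMUSG00000005370, 10 exons in its longest transcript of the consensus coding set, as for the others) is at chr17:87975062-87990892 on the plus strand and Msh3 (ENSMUSG00000014850, 24 exons) at chr13:92211872-92355003 on the minus strand. Pms2 (ENSMUSG00000079109, 15 exons) is at chr5:143909964-143933968 on the plus strand and Mlh3 (ENSMUSG00000021245, 12 exons) at chr12:85234520-85270599 on the minus strand. Exo1 (ENSMUSG00000039748, 15 exons) is at chr1:175880581-175913489 on the plus strand. Pole (ENSMUSG00000007080, 49 exons) is at chr5:110286306-110337474 on the plus strand and Pold1 (ENSMUSG00000038644, 27 exons) at chr7:44532746-44548849 on the minus strand. The values were made for whole genes, exons and UTRs together.

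Pms2 and Pole each start close to an oppositely transcribed neighbour, Pms2 at 117 bases from Aimp2 and Pole at 120 bases from Pxmp2. Pms2 also overlaps Gm42421 and Rsph10b on its own strand, by 5794 and 934 bases, and Pole overlaps Gm26277 and Gm15791 likewise, so that their values are less certain for that reason. Stretches of 50 bases found also in the transcripts of other genes made up 4.56% of the stretches of Msh6, 4.08% of those of Pms2, 1.51% of those of Msh3 and under 1% of those of the other genes (0.941% for Exo1 at most).

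Promoters are shown because some of the genes varied with the genes of DNA replication, many of which are driven by E2F factors. RefSeq promoters (GRCm38.p6, from 250 bases before to 50 after the start) were at hand for 5 of the 7 genes, that is, for all but Exo1 and Pole. They were searched on both strands for the words TTTCCCGC, TTTCGCGC, TTTGCCGC and TTTGGCGC, and matches of different words may overlap. A word was found for 3 genes, Msh3, Msh6 and Pold1. For Msh6 and Pold1 the 30 bases around it are given 5′ to 3′ on the strand of the gene, with the match in capitals, as the examples that lie in the gene's own transcript. The Msh6 window (chr17:87975054-87975083, plus strand) has its match at base 16 of the RefSeq transcript. The Pold1 window (chr7:44548766-44548795, minus strand) has it at base 40 of the RefSeq transcript, on the opposite strand. These RefSeq starts differ from those of the gene positions given above.
Msh6: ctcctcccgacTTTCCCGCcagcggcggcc
Pold1: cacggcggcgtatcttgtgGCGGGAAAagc
These words stood in 744 of all 32851 promoters of the table (2.26%), or in 704 of 27025 genes when any promoter of a gene counts (2.6%). They stood, per gene, in 8 of 19 S-phase genes with an entry (42.1%), in 4 of 9 other replicative polymerase subunits (44.4%) and in 3 of 15 partners of mismatch repair (20%). The shares were 1 of 15 base excision and direct repair genes (6.67%) and 1 of 16 G2/M genes (6.25%). A match describes the letters only, and Mlh3 and Pms2 had none in this window. Msh3, with 2 overlapping matches, had a median Pearson r of 0.09 to the S-phase list over 46 samples and -0.08 over 43, as described below. Exo1 and Pole, with the highest such r, had no promoter entry. A relation of matches to levels was not tested.

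In cultured MC-38 cells the genes spanned levels from 3.28 to 37.3 FPKM, and the partners of a step stood far apart. Msh6 was highest at 37.3 ± 1.25 FPKM (SD, n = 3), followed by Exo1 at 32.2 ± 0.24 and Pold1 at 26.2 ± 2.37. Pole stood at 18.1 ± 0.45, Pms2 at 14.6 ± 0.48 and Msh3 at 8.87 ± 0.57 FPKM. Mlh3 was lowest at 3.28 ± 0.04 FPKM. Msh6 thus exceeded Msh3 4.18 ± 0.41-fold in culture, and Pole was 0.695 times Pold1 on average.

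**Figure D1:**
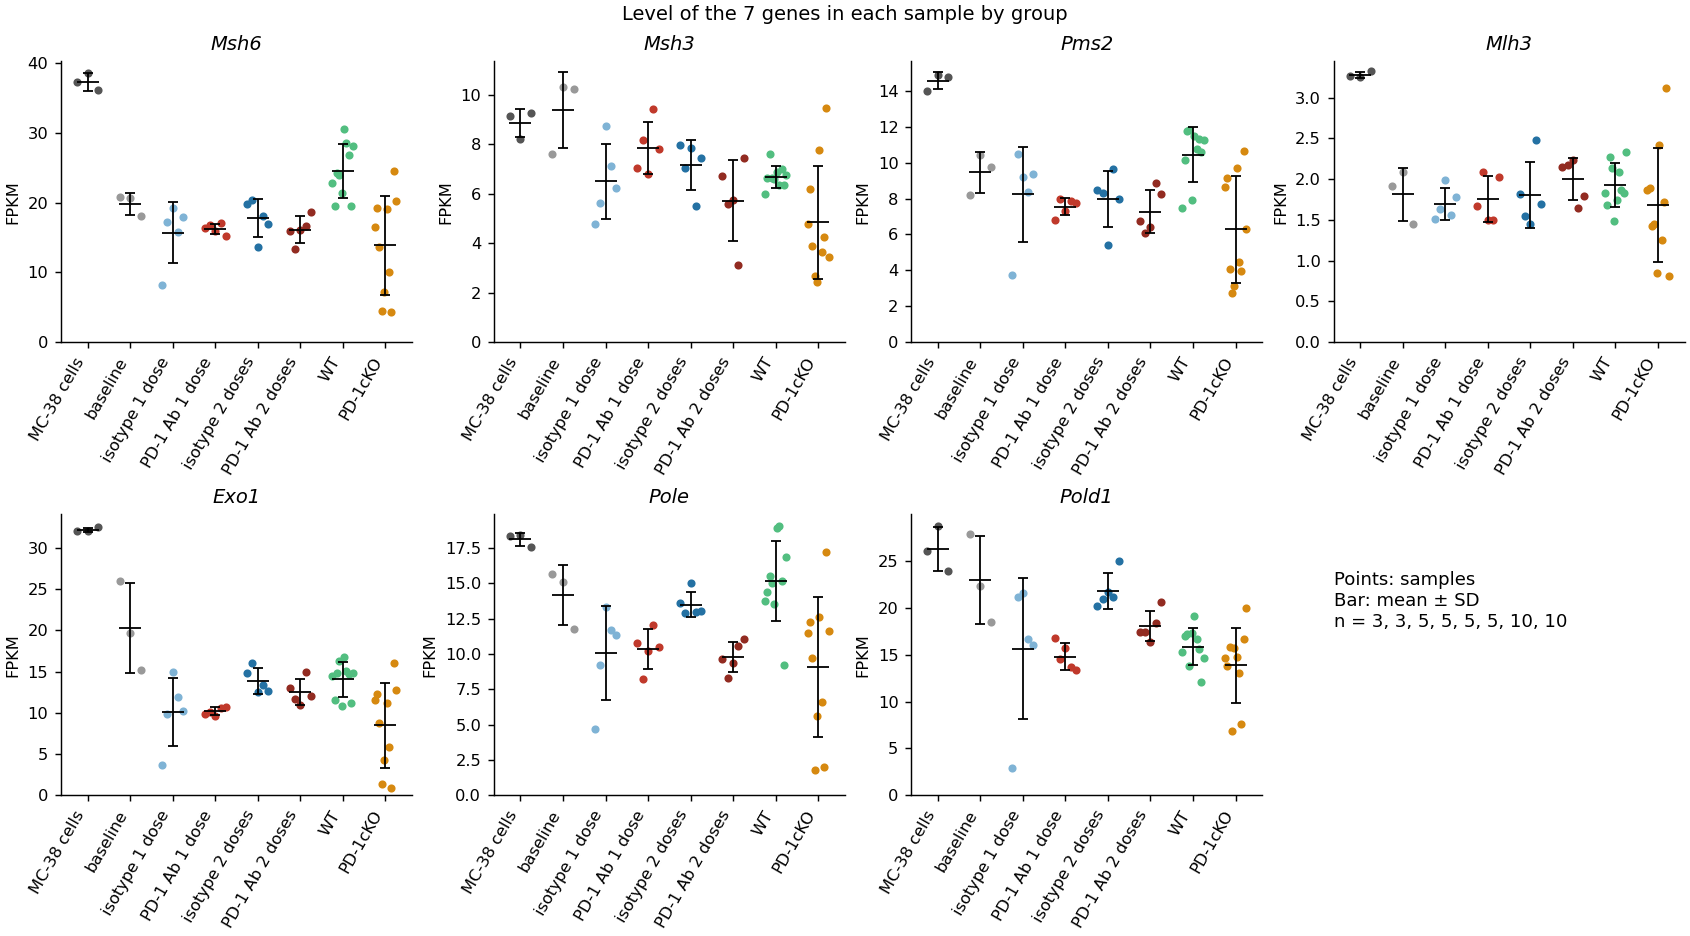
FPKM of each gene (linear axis from 0) in every sample of the 8 groups, with a point for each sample and bars for the mean and SD of each group. On this scale, as deposited, all 43 tumors lie below the 3 cultures for Exo1, Mlh3, Msh6 and Pms2 (on the median-of-ratios scale 43, 39, 40 and 35 do), and for each gene but Pold1 and Exo1 the PD-1cKO tumors have the widest SD.

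On the scale as deposited, Msh6, Pms2, Mlh3 and Exo1 were lower in all 43 tumors than in the lowest of the 3 cultures, Pole and Pold1 in 41 and Msh3 in 38. This held on the median-of-ratios scale in 43 tumors for Exo1 only, in 40 for Msh6, 39 for Mlh3, 36 for Pold1, 35 for Pms2, 31 for Pole and 20 for Msh3. The order of the 8 groups was otherwise weakly resolved. As deposited, cultures had the highest mean for every gene but Msh3, for which baseline tumors averaged 9.39 ± 1.54 FPKM (n = 3) and overlapped the cultures. Pole was also higher in WT tumors (16.3) than in cultures (14.4) on the median-of-ratios scale. PD-1cKO tumors had the lowest mean for all 7 genes as deposited and for none of them on the median-of-ratios scale. As deposited, nearly all neighbouring groups below the cultures overlapped, with 2 exceptions among the tumor groups. Exo1 in the PD-1 Ab 2-dose tumors (lowest 10.9 FPKM) lay above Exo1 in the PD-1 Ab 1-dose tumors (highest 10.7), and Pole in the isotype 2-dose tumors (lowest 12.9) lay above Pole in the PD-1 Ab 1-dose tumors (highest 12.1).

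How the transcripts of the line change on implantation was addressed by comparing the isotype 2-dose tumors with the cultured cells. In this comparison 5 of the 7 genes were lower in tumors, Exo1 and Msh6 by more than 2-fold, against 16.8% of the 15199 genes tested that were called lower and 7.09% that were called lower by 2-fold. On the median-of-ratios scale Pole was not called, at -0.34 (limma adjusted p = 0.0139). Exo1 was called lower by 2-fold on that scale, with Msh6 at -0.99. In bulk tissue fewer MC-38 cells and less RNA per cell cannot be told apart. The identifiers of the cultures and of these tumors also fell into separate series of numbers, and what a series stands for is not given. Group and series cannot be told apart in this comparison.

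Msh6 was 37.2, 38.6 and 36.1 FPKM in the 3 cultures. In the 5 isotype 2-dose tumors it was 19.8, 20.4, 13.6, 18.1 and 16.9 FPKM. The groups did not overlap, and the log2 fold change was -1.08 (SE 0.13, limma with Benjamini-Hochberg adjustment, adjusted p = 0.000118). Msh3, the alternative mismatch recognition subunit, was 9.13, 8.22 and 9.26 FPKM in the cultures. In the tumors it was 7.97, 7.04, 7.85, 5.50 and 7.45 FPKM. All 5 tumors lay below the cultures, but the difference of -0.32 (SE 0.14, limma adjusted p = 0.0744) was not called.

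Pms2 was 14.0, 14.9 and 14.8 FPKM in the cultures and 8.46, 8.29, 5.42, 9.63 and 7.99 FPKM in the tumors, giving -0.89 on the log2 scale (SE 0.17, limma adjusted p = 0.00198). Mlh3 was 3.26, 3.26 and 3.32 FPKM in the cultures and 1.82, 1.55, 1.46, 2.49 and 1.70 FPKM in the tumors, giving -0.85 on the log2 scale (SE 0.18, limma adjusted p = 0.00397). Both MutL-type genes therefore fell by similar amounts from very different levels. Exo1 gave the lowest fold change of the 7. It was 32.1, 32.1 and 32.5 FPKM in the cultures. In the tumors it was 14.8, 16.1, 12.5, 13.3 and 12.7 FPKM, giving -1.22 on the log2 scale (SE 0.10, limma adjusted p = 8.6e-06), and 9.0% of all genes tested had a lower one.

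The polymerases differed less. Pole was 18.4, 18.4 and 17.6 FPKM in the cultures and 13.6, 12.9, 15.0, 12.97 and 13.03 FPKM in the tumors (log2 fold change -0.42, SE 0.08, limma adjusted p = 0.00228). Pold1 was 26.1, 28.7 and 24.0 FPKM in the cultures and 20.1, 20.9, 21.7, 21.2 and 25.0 FPKM in the tumors. These Pold1 values overlapped, and the difference of -0.27 (SE 0.10, limma adjusted p = 0.041) was not called.

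The other genes of the pathway were examined as lists. Of 15 tested partners of mismatch repair, which load the clamp, protect single strands, ligate or mark chromatin, 6 were called lower and none higher (median log2 fold change -0.43). Among them were Rfc1 of the clamp loader (-0.75, SE 0.18), Rpa1 of the single-strand binding protein (-0.69, SE 0.07) and Hmgb1 (-0.49, SE 0.10). Of 10 other subunits of the replicative polymerases 5 were called lower (median -0.34), with the primase-polymerase genes Pola1 (-1.21, SE 0.23) and Prim1 (-0.86, SE 0.10) and the epsilon subunit Pole2 (-0.58, SE 0.08). Of 16 tested genes of base excision and direct repair 5 were called lower and Mgmt, which removes alkyl groups from guanine, was called higher at 1.26 (SE 0.32). Of 25 S-phase genes 16 were called lower (median -0.47) and of 18 G2/M genes 14 (median -0.69), while the median of all genes tested was -0.11. All calls in these lists are from limma with the same adjusted threshold. Leukocyte transcripts moved in the opposite direction. All 13 tested of 15 leukocyte markers were higher in tumors, with a summed level of 426 to 545 FPKM compared to 2.66 to 3.27 FPKM in the cultures, where 9 of the 15 were at 0 (among them Cd3d, Cd3e, Cd3g, Cd8b1, Adgre1, Itgam, Itgax and Ncr1). The part of these host cells in the lower values was not tested. Set against the mean of the S-phase list in each sample, Exo1 (-0.75, adjusted p = 0.000369) and Msh6 (-0.61, adjusted p = 0.0065) were still called lower by limma and the other 5 genes were not. Leaving out 1 culture ended the calls of Mlh3 and Pole (any culture, limma adjusted p 0.0111 to 0.0215) and of Pms2 (culture 2 or 3, 0.0117), and leaving out tumor 5 ended that of Mlh3 (0.0108).

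**Figure D2:**
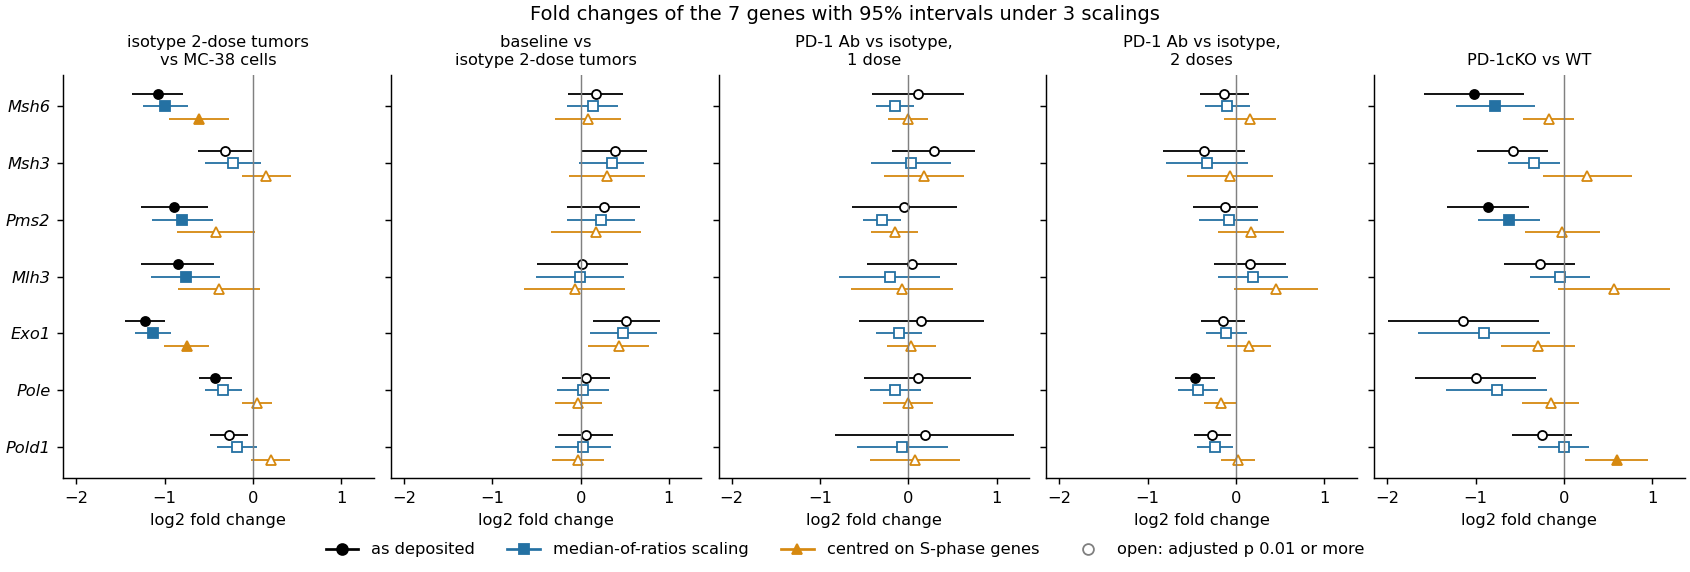
Log2 fold change of each gene in the 5 comparisons with its 95% confidence interval from limma, as deposited (circles), on the median-of-ratios scale (squares) and centred on the S-phase genes (triangles), with filled symbols for called values. As deposited, the called values are all below 0 and stand in the comparison with cultured cells (5 genes), in PD-1cKO against WT (Msh6 and Pms2) and after 2 doses of PD-1 Ab (Pole).

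Baseline tumors were compared with the isotype 2-dose tumors to see whether the genes differ between control tumors. The identifiers of these groups also fell into separate series, so group and series cannot be told apart here. No member was called, against 0.628% of 14967 genes. Exo1 was 26.0, 19.7 and 15.2 FPKM at baseline, in 2 of 3 tumors above the 12.5 to 16.1 FPKM of the isotype 2-dose tumors (log2 difference 0.52, SE 0.17, limma adjusted p = 0.149). For Msh3 the difference was 0.38 (SE 0.16, adjusted p = 0.26). These were the 2 genes of the 7 with the lowest adjusted p, and the remaining differences were 0.02 to 0.26.

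The effect of PD-1 Ab was examined first after 1 dose. No gene of the 14556 tested was called (0%), and 895 had an unadjusted p under 0.05 in limma, none of them among the 7. The log2 differences of the 7 genes were between -0.04 (Pms2) and 0.29 (Msh3, SE 0.22, adjusted p = 0.83), compared to a median of 0.26 over all genes. This median lay at 0.004 when samples were put on a median-of-ratios scale, on which the 7 differences were between -0.30 and 0.03, so their direction depended on the scale.

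Isotype 1-dose tumor 1 gave most of the spread. Pold1 was 2.93 FPKM in this tumor and 21.2, 21.6, 16.6 and 16.0 FPKM in the other isotype 1-dose tumors. After 1 dose of PD-1 Ab it was 16.8, 14.6, 15.7, 13.6 and 13.3 FPKM. The share of the other tumors' mean that was left in tumor 1 ran from 15.6% for Pold1 and 31.1% for Exo1 to 68.7% for Msh3 and 86.6% for Mlh3. Without it and on the median-of-ratios scale 24 genes were called by limma, none of the 7. Pold1 was then at -0.31 (limma adjusted p = 0.184) and Pms2 at -0.27 (limma adjusted p = 0.155).

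After 2 doses of PD-1 Ab, Pole fell and the other 6 genes were not called. Pole was 13.6, 12.9, 15.0, 12.97 and 13.03 FPKM in the isotype tumors. In the PD-1 Ab tumors it was 9.63, 8.30, 9.38, 10.6 and 11.0 FPKM. The groups did not overlap, and the log2 fold change was -0.47 (SE 0.10, 95% CI -0.69 to -0.24, limma adjusted p = 0.00964), 1 gene of 7 against 1.56% of 15062 genes called lower. The value was close to the threshold. On the median-of-ratios scale it was -0.43 (limma adjusted p = 0.014), and with 1 tumor left out it was called only without PD-1 Ab tumor 5, the limma adjusted p being 0.0118 to 0.0319 without any 1 of the other 9 tumors.

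Pold1, the catalytic subunit of the other replicative polymerase, was 20.1, 20.9, 21.7, 21.2 and 25.0 FPKM under isotype and 17.4, 17.4, 16.4, 18.4 and 20.7 FPKM under PD-1 Ab. Its log2 difference was -0.27 (SE 0.10, limma adjusted p = 0.0575), and only PD-1 Ab tumor 5 reached into the isotype range. The recognition subunits gave -0.13 (Msh6, SE 0.13) and -0.36 (Msh3, SE 0.21). Exo1 gave -0.15 (SE 0.11), Pms2 -0.12 (SE 0.17) and Mlh3 0.16 (SE 0.19), with limma adjusted p of 0.224 to 0.624 over these 5 genes. For the median gene the difference was -0.04.

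Among the lists, Rpa3 of the single-strand binding protein was the partner of mismatch repair called lower of 15 tested (-0.65, SE 0.13, limma adjusted p = 0.00601). No other polymerase subunit of 10 and no S-phase gene of 25 was called, with medians of -0.34 and -0.31, and 3 of 18 G2/M genes were called lower (median -0.44). Leukocyte markers rose, 12 of 15 tested, and their summed level was 748 to 2477 FPKM under PD-1 Ab compared to 426 to 545 FPKM under isotype, with no marker at 0 in all tumors of a group. Of 4 fat markers 1 was called higher (median 2.86, summed level 23.4 to 301 FPKM compared to 9.50 to 64.9) and of 4 endothelial markers 1 (median 1.31, 22.1 to 76.9 FPKM compared to 16.3 to 21.4). Set against the S-phase list, Pole was at -0.17 and not called. The part of infiltrating or surrounding cells or of S-phase transcripts in the Pole value was not tested.

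The genetic loss of PD-1 in the host was examined by comparing PD-1cKO with WT tumors. Msh6 and Pms2 fell, and Exo1, Pole and Msh3 had lower values that were not called. These are 2 genes of 7 against 12.6% of 15075 genes called lower. Over all genes 1323 were called higher and 1894 lower on the scale as deposited, whereas 2180 were higher and 1168 lower on the median-of-ratios scale. The median of all genes was -0.20 on the first and 0.04 on the second scale. Msh6 and Pms2 were called lower on both.

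Msh6 ranged from 19.5 to 30.6 FPKM (median 24.1, n = 10) in WT tumors. In PD-1cKO tumors 1 to 10 it was 16.5, 19.2, 13.6, 4.49, 7.21, 19.1, 10.0, 4.38, 24.5 and 20.2 FPKM. Of these 10 tumors 8 lay below the lowest WT tumor, and the log2 fold change was -1.02 (SE 0.27, 95% CI -1.59 to -0.45, limma adjusted p = 0.00699). On the median-of-ratios scale it was -0.78 (limma adjusted p = 0.00803). Msh3 was 6.00 to 7.62 FPKM (median 6.62) in WT tumors and 2.43 to 9.47 FPKM (median 4.06) in PD-1cKO tumors, 7 of which lay below all WT tumors. The log2 difference of Msh3 was -0.58 (SE 0.19, limma adjusted p = 0.0207).

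Pms2 was 7.46 to 11.8 FPKM (median 11.0) in WT tumors. In PD-1cKO tumors 1 to 10 it was 8.65, 9.16, 4.07, 2.74, 3.14, 9.69, 4.48, 3.97, 10.6 and 6.33 FPKM. Of the 10 tumors 6 lay below all WT tumors, and the log2 fold change was -0.86 (SE 0.22, 95% CI -1.33 to -0.40, limma adjusted p = 0.00596). On the median-of-ratios scale it was -0.62 (limma adjusted p = 0.00724). Its MutL-type relative Mlh3 was 1.49 to 2.33 FPKM (median 1.85) in WT and 0.812 to 3.11 FPKM (median 1.58) in PD-1cKO tumors, and the difference of -0.27 (SE 0.19, limma adjusted p = 0.248) was not called.

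Exo1 had the lowest mean difference of the 7 and also the widest spread. It was 10.9 to 16.8 FPKM (median 14.8) in WT tumors. In PD-1cKO tumors 1 to 10 it was 11.6, 12.3, 8.80, 1.39, 4.24, 11.1, 5.88, 0.842, 16.1 and 12.8 FPKM. Tumors 4 and 8 had 9.89% and 5.99% of the WT mean, 5 tumors lay within the WT range, and the difference of -1.14 (SE 0.41, limma adjusted p = 0.0308) was not called.

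Pole was 9.26 to 19.0 FPKM (median 15.1) in WT tumors. In PD-1cKO tumors 1 to 10 it was 11.46, 12.3, 9.71, 1.82, 5.62, 12.6, 6.63, 2.03, 17.2 and 11.7 FPKM. Only 4 of these lay below all WT tumors, and the difference was -0.996 (SE 0.33, limma adjusted p = 0.0205). Pold1 stayed within a narrower range, from 12.1 to 19.1 FPKM (median 16.1) in WT and from 6.85 to 20.02 FPKM (median 14.7) in PD-1cKO tumors. Tumors 4 and 8 were the only ones below all WT tumors. Its difference was -0.25 (SE 0.16, limma adjusted p = 0.218), and on the median-of-ratios scale it was -0.00 (95% CI -0.29 to 0.28).

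**Figure D3:**
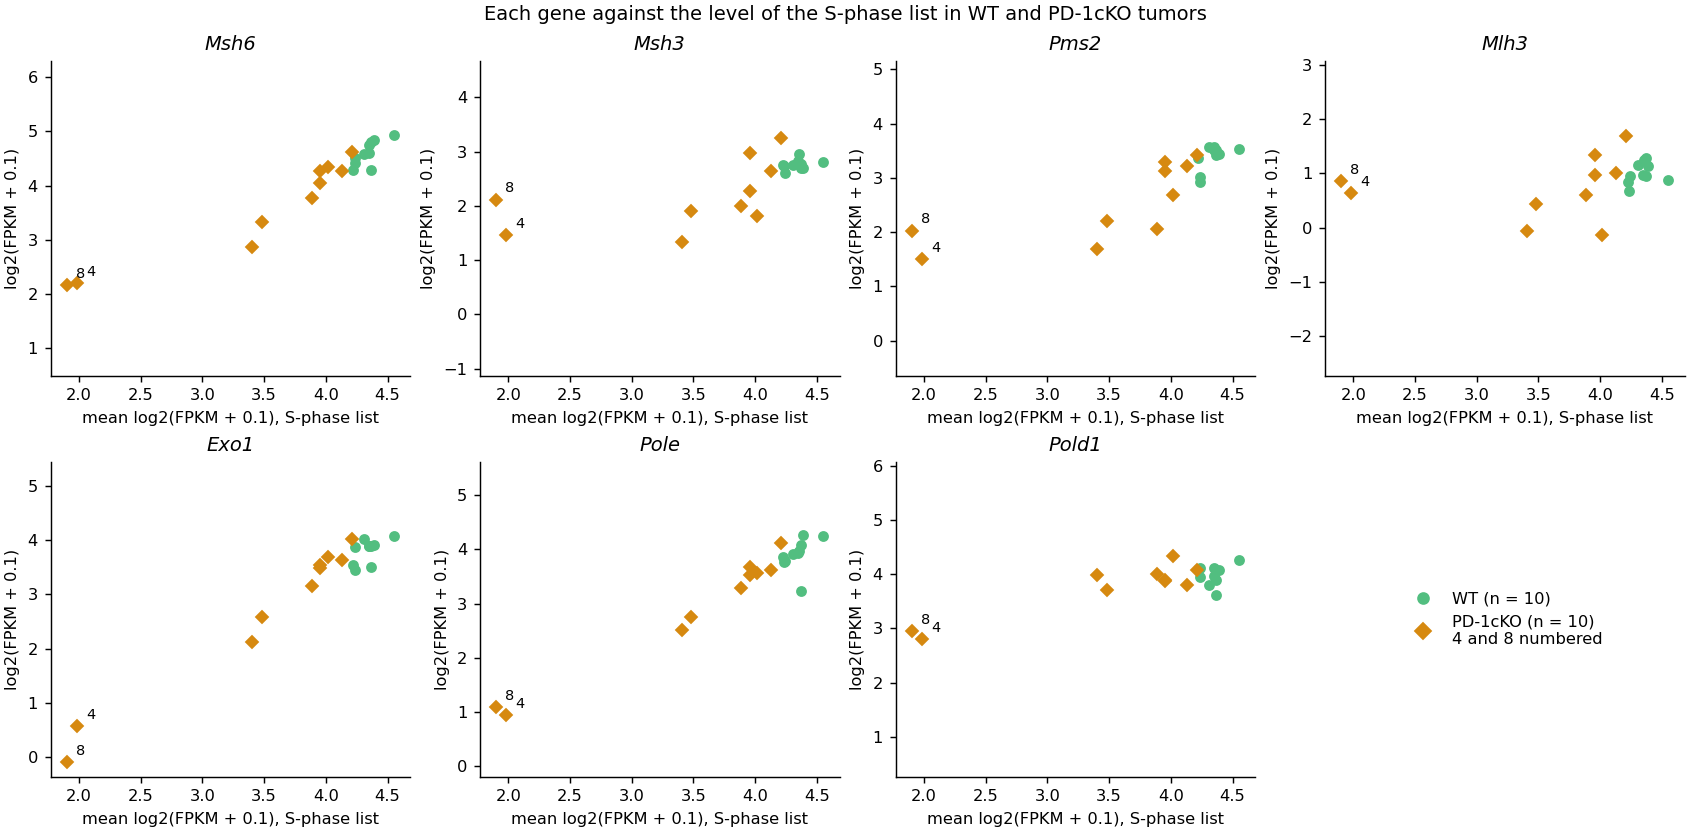
Log2(FPKM + 0.1) of each gene plotted against the mean log2(FPKM + 0.1) of 25 S-phase genes in the WT (n = 10) and PD-1cKO (n = 10) tumors, with PD-1cKO tumors 4 and 8 numbered and the same vertical span in each panel. Msh6, Exo1 and Pole lie along a slope from tumors 4 and 8 (S-phase means 1.98 and 1.90) up to the WT tumors (4.22 to 4.55), whereas Mlh3 and Msh3 in tumors 4 and 8 lie among the other PD-1cKO tumors.

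Tumors 4 and 8 had low levels of the genes of proliferation. The mean log2(FPKM + 0.1) of the S-phase list was 1.98 and 1.90 in these tumors, 3.40 to 4.21 in the other 8 PD-1cKO tumors and 4.22 to 4.55 in WT tumors. That of 8 fibroblast markers was 7.97 and 7.99, compared to 5.99 to 7.57 in the other 8 PD-1cKO and 5.47 to 6.27 in WT tumors. That of 15 leukocyte markers was 4.96 and 4.76, compared to 3.27 to 4.29 and 2.50 to 3.48. That of 4 fat markers was 3.30 in tumor 4 and 6.69 in tumor 8, compared to -0.78 to 4.10 and -0.62 to 3.30. Without both tumors none of the 7 genes was called by limma. Msh6 was then at -0.67 (SE 0.19, adjusted p = 0.0135), Pms2 at -0.67 (SE 0.21, adjusted p = 0.0205), Exo1 at -0.53 (adjusted p = 0.0488), Pole at -0.52 (adjusted p = 0.0355) and Pold1 at -0.03 (adjusted p = 0.845).

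The calls of Msh6 and Pms2 also turned on single tumors. With 1 of the 20 tumors left out, Msh6 was called in 10 of 20 fits and Pms2 in 8. The call of Msh6 ended without PD-1cKO tumor 4, 5, 7 or 8 or WT tumor 3, 4, 6, 7, 8 or 10, with limma adjusted p of 0.0108 to 0.0149. That of Pms2 ended without PD-1cKO tumor 3, 4, 5, 7 or 8 or WT tumor 3, 4, 6, 7, 8, 9 or 10 (limma adjusted p 0.0101 to 0.0124). Without PD-1cKO tumor 9 Msh3 (limma adjusted p = 0.00227) and Pole (0.00736) were called as well, and without tumor 6 Msh3 was (0.00733). The log2 fold changes kept their sign in all 20 fits for all 7 genes.

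The identifiers of these tumors fell into 3 runs of consecutive numbers that nearly coincided with the groups, and what a run stands for is not given. Run 1 held PD-1cKO tumors 1 to 7 only. Run 2 held PD-1cKO tumor 8 with 9 WT tumors, in which the log2 difference was -2.42 for Msh6, -1.34 for Pms2 and -3.88 for Exo1, and rested on tumor 8 alone. Run 3 held PD-1cKO tumors 9 and 10 with WT tumor 10, and there the differences were -0.33 for Msh6, -0.45 for Pms2, -0.05 for Exo1, -0.25 for Pole and 0.31 for Pold1. With the run as a covariate no gene of the table was called by limma. Msh6 was then at -1.53 (SE 0.44, adjusted p = 0.027) and Pms2 at -0.96 (SE 0.40, adjusted p = 0.0734). Group and run can therefore hardly be told apart.

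The lists moved in the same direction. Of 15 partners of mismatch repair 4 were called lower (median -0.64), among them the clamp loader genes Rfc4 (-1.17, SE 0.27) and Rfc1 (-1.10, SE 0.26) and Hmgb1 (-1.10, SE 0.28). Of 10 other polymerase subunits 4 were called lower (median -0.68), among them Prim1 (-1.34, SE 0.33), Pole2 (-1.34, SE 0.28) and Pola1 (-1.30, SE 0.28). Of 17 base excision and direct repair genes 5 were called lower (median -0.40), including Neil3, a glycosylase of proliferating cells (-1.60, SE 0.37), the nuclease gene Apex1 (-0.71, SE 0.18) and the ligase gene Lig3 (-0.69, SE 0.17). Of 25 S-phase genes 8 were called lower (median -0.87) and of 18 G2/M genes 11 (median -1.29), with no gene of these 5 lists called higher. On the median-of-ratios scale the counts were 3, 4, 2, 6 and 7, all lower. Leukocyte markers rose, 11 of 13 tested, with summed levels of 651 to 2464 FPKM in PD-1cKO and 362 to 793 FPKM in WT tumors. Fibroblast markers rose, 4 of 8, with 2259 to 12486 FPKM compared to 1096 to 2305 FPKM. No marker of these 2 lists was at 0 in all tumors of a group. Set against the S-phase list, the 7 genes gave a different picture in which only Pold1 was called, as higher (0.60, SE 0.17, limma adjusted p = 0.00947), and Msh6 and Pms2 were not. The parts of host cells and of S-phase transcripts in the lower values were not tested.

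The models were compared directly by testing the difference between the effect of 2 doses of PD-1 Ab and that of the conditional knockout. No member was called, against 0.0975% of 16404 genes. For Msh6 the antibody effect exceeded the knockout effect by 0.89 (SE 0.41, limma adjusted p = 0.295) and for Pms2 by 0.74 (SE 0.35, adjusted p = 0.299), the 2 lowest adjusted p among the members. For Pole it was 0.53 (SE 0.49, adjusted p = 0.584) and for Pold1 -0.02 (95% CI -0.52 to 0.47). The fall of Pole under PD-1 Ab and those of Msh6 and Pms2 in PD-1cKO tumors are therefore not shown to belong to either model alone.

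A pair of ratios was compared in the 5 comparisons because a common change of scale cancels in them, which a change of cell content need not do. They were Msh6 to Msh3, the choice of recognition subunit, and Pole to Pold1, the catalytic subunits of the 2 polymerases. The 10 two-sided permutation tests, exact for groups under 10, were adjusted together after Benjamini-Hochberg with a threshold of 0.05.

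**Figure D4:**
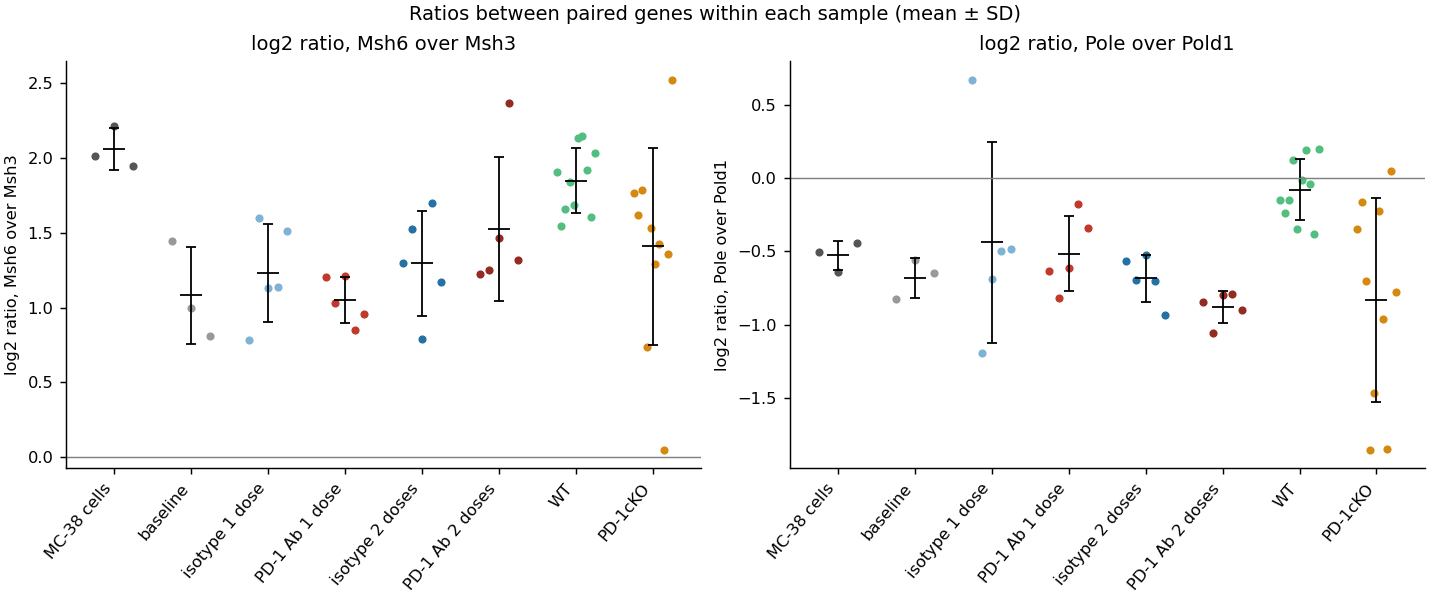
Log2 of Msh6 minus log2 of Msh3 (left) and log2 of Pole minus log2 of Pold1 (right) in every sample by group, with group means and SD. The Pole to Pold1 values of 6 of the 10 PD-1cKO tumors lie below all WT tumors.

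Pole minus Pold1 was between -0.38 and 0.20 (median -0.09) on the log2 scale in WT tumors. In PD-1cKO tumors it was between -1.85 and 0.05 (median -0.74), and 6 of 10 lay below all WT tumors. The means were -0.08 and -0.83, a difference of -0.75 (permutation p = 0.00276, adjusted p = 0.0276). Tumors 4 and 8 both had -1.85. Without them the difference was -0.49 (permutation p = 0.0106, adjusted p = 0.106). As linear ratios, Pole was 0.954 ± 0.138 of Pold1 in WT (SD, n = 10) and 0.619 ± 0.267 in PD-1cKO tumors (SD, n = 10). After 2 doses of PD-1 Ab the log2 ratio was -0.88 compared to -0.68 under isotype, a difference of -0.20 (exact permutation p = 0.0556, adjusted p = 0.139).

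Msh6 minus Msh3 was 1.95 to 2.22 in the cultures and 0.79 to 1.70 in the isotype 2-dose tumors. All 5 tumors lay below all 3 cultures, which gave the smallest p that 5 against 3 samples allow (difference -0.76, exact permutation p = 0.0357, adjusted p = 0.139). As a linear ratio Msh6 was 2.51 ± 0.58 times Msh3 in these tumors compared to 4.18 ± 0.41 in culture. In PD-1cKO tumors it was 2.90 ± 1.25 and in WT tumors 3.64 ± 0.55, and the log2 difference of -0.44 did not pass (permutation p = 0.0527, adjusted p = 0.139). The remaining ratio tests had adjusted p of 0.286 to 0.929.

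Which genes varied together was described within groups. Pearson r was taken over the 46 samples on the median-of-ratios scale after the mean of each group was subtracted, and again over 43 samples without isotype 1-dose tumor 1 and PD-1cKO tumors 4 and 8. These values share libraries and carry no test.

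**Figure D5:**
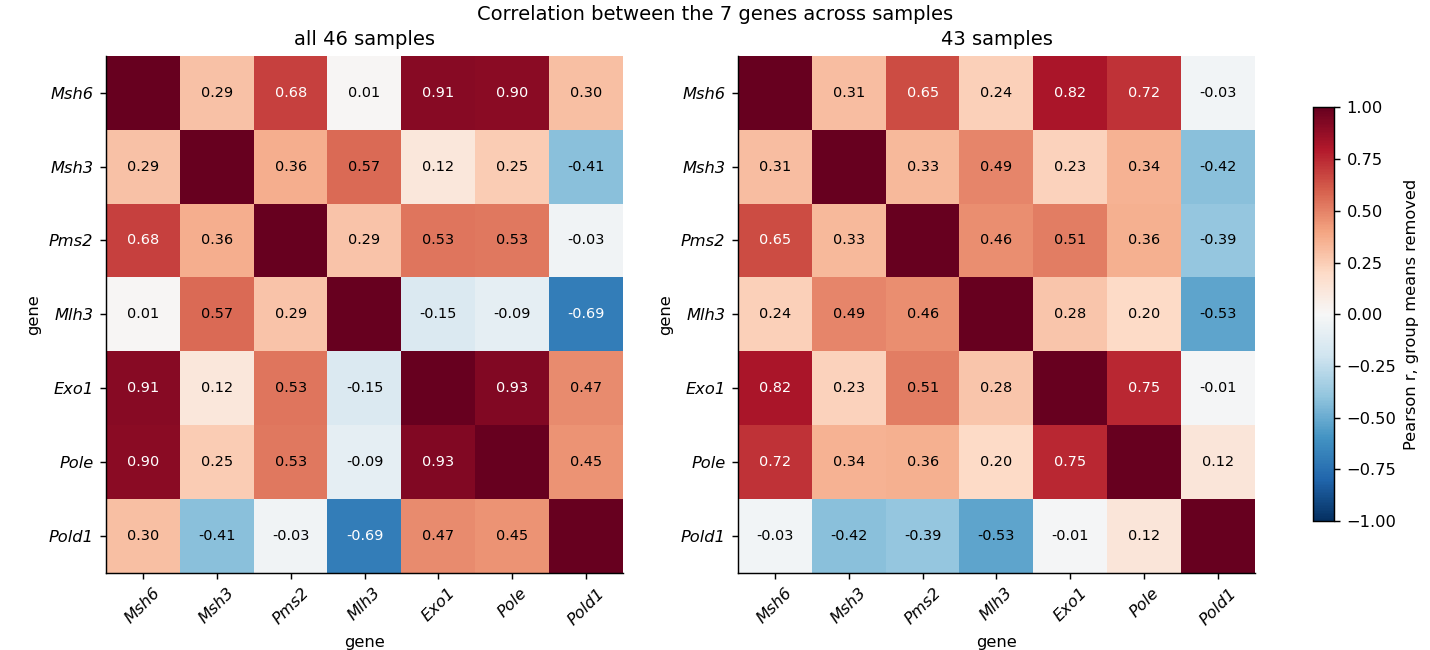
Pearson r between each pair of the 7 genes over all 46 samples (left) and over 43 samples (right), with group means removed. Msh6, Exo1 and Pole form the block of high values on both sides, and Pold1 loses its link to them on the right.

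Msh6, Exo1 and Pole varied together. The r of Exo1 and Pole was 0.93 over 46 and 0.75 over 43 samples, that of Msh6 and Exo1 0.91 and 0.82, and that of Msh6 and Pole 0.90 and 0.72. Pms2 was joined to Msh6 by 0.68 and 0.65. Mlh3 and Msh3 formed a looser pair at 0.57 and 0.49. Pold1 stood apart, with 0.45 and 0.12 to Pole, 0.47 and -0.01 to Exo1 and -0.69 and -0.53 to Mlh3. The r of the 2 proofreading polymerases was thus low once the 3 samples that stand apart were left out.

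The median r to the genes of the S-phase list was highest for the same 3 genes. It was 0.82 for Exo1, 0.79 for Pole, 0.72 for Msh6, 0.53 for Pold1, 0.42 for Pms2, 0.09 for Msh3 and -0.20 for Mlh3 over 46 samples. Over 43 samples it was 0.41, 0.40, 0.34, 0.26, 0.21, -0.08 and 0.00 in the same order. Leaving out 3 samples thus lowered the values of the first 5 genes named. The median r to the G2/M list was 0.86 for Exo1, 0.84 for Pole, 0.81 for Msh6, 0.50 for Pms2, 0.34 for Pold1, 0.25 for Msh3 and -0.05 for Mlh3 over 46 samples. Except for Pold1, these values over 46 samples were above those to the S-phase list. Over 43 samples the median r to the G2/M list was 0.37 for Exo1, 0.41 for Pole, 0.53 for Msh6 and 0.34 for Pms2. It was -0.07 for Pold1, 0.36 for Msh3 and 0.26 for Mlh3. Exo1 and Pold1 were then below their values to the S-phase list, and Exo1 and Pole differed little between the lists. Except for Pold1, the relation was thus not particular to the genes of replication.

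The genes most like each member, out of 13240 with a mean of 1 FPKM or more, are named with r over 46 and over 43 samples. For Msh6 they were Fancd2, of the Fanconi anemia pathway of crosslink repair (0.95 and 0.89), Ssx2ip (0.95 and 0.86) and Nup107 of the nuclear pore (0.93 and 0.81). For Exo1 they were Cdca7 (0.95 and 0.78), Ctps, which makes CTP (0.95 and 0.76), and Nolc1 (0.95 and 0.72), and for Pole they were Cdca7 (0.95 and 0.74), Ctps (0.94 and 0.80) and Spag5 of the mitotic spindle (0.94 and 0.72). Exo1 and Pole thus shared 2 of their 3 nearest genes.

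For Pold1 the nearest genes were Nle1 (0.90 and 0.74), Pgs1 (0.88 and 0.73) and Pcbp4 (0.88 and 0.69). For Pms2 they were Zyg11b (0.79 and 0.76), Fubp1 (0.79 and 0.79) and Plod2 (0.78 and 0.72). Those of Msh3 were Smchd1, a chromatin protein (0.84 and 0.82), N4bp2l2 (0.81 and 0.80) and Chordc1 (0.80 and 0.76). Those of Mlh3 were Rap1b, a small GTPase (0.81 and 0.74), Armc8 (0.80 and 0.75) and Vps26a of the retromer (0.80 and 0.73). No gene was shared between these 4 lists of 3.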

How the data were processed

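Total RNA from cultured cells and snap-frozen tumors was depleted of ribosomal RNA, made into stranded paired-end libraries and sequenced with reads of 50 bases. The authors aligned the reads with OSA in Omicsoft Array Studio to mouse build GRCm38 with Ensembl annotation and deposited FPKM per gene, in 1 table of 48795 genes and 46 samples. The study gives a range of mapped reads over all samples but no total for each sample. The depth of a given sample is therefore unknown, and no counting interval was computed. No samples were identical. The members and the gene lists were chosen with earlier results of these data known.

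Genes were kept where the mean was at least 0.5 FPKM in either group compared. log2(FPKM + 0.1) was fitted with limma 3.58.1 (R 4.3.3, lmFit and eBayes with trend), only with the groups compared, and p-values were adjusted over all genes kept after Benjamini-Hochberg (called at 0.01). A fold change on this scale understates that of low genes. The difference between models was fitted over the 4 groups concerned. The authors' test used counts, which were not analysed here. Ratios were tested by two-sided permutation (exact for groups under 10, 100000 resamples for 10 against 10, scipy 1.17.1). All samples are labelled as separate replicates, and the labels do not tie them to separate mice, so p-values measure the spread between these samples.

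All 7 members were named. From each list, the genes called with the 3 highest and 3 lowest fold changes could be named. Likeness used the 3 genes of highest Pearson r, with group means subtracted, among genes averaging 1 FPKM or more. Genes outside these rules (Pdcd1, and the markers at 0 or measured in culture) were named after their values were seen. Gene positions came from GENCODE M21 and promoters from RefSeq. Alternatives were a pseudocount of 1, no filter or one at 1 FPKM, scaling by median of ratios, centring on the S-phase list, all tumor groups in 1 fit, the replicate number as a block, the identifier run as a covariate and each replicate left out. Of these, the ratios of PD-1cKO and WT tumors were run only with a pseudocount of 1 and the replicate block. No single tumor was left out for these ratios, and the identifier run was not used. Leaving out tumors 4 and 8 together, and isotype tumor 1 with median-of-ratios scaling, was chosen after seeing the data. The scripts were tested on simulated data.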

Additional observations from a re-analysis of the deposited data

Results flagged for a closer look

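The ratio of Msh6 to Msh3 in PD-1 Ab 2-dose tumor 4 lay far from the other 4 tumors of its group, with log2 Msh6 minus log2 Msh3 at 2.371 compared to 1.468 in the nearest one. The gap took 0.788 of the range of the group, against a critical value of 0.71 for 5 samples. Msh3 was 3.13 FPKM in this tumor and 5.57 to 7.43 FPKM in the other 4, whereas Msh6 was 16.6 FPKM in it and 13.4 to 18.7 FPKM in the other 4. This was 1 of 54 groups and measures examined, and chance sets apart about 1 in 20.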

How the results depend on the processing

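The number of the 7 genes called was 0 after 1 dose, at baseline and in the difference between models under all alternatives run. After 2 doses it was 1 as reported and 0 with a pseudocount of 1, with no filter, on the median-of-ratios scale, centred on the S-phase list and with all tumor groups in 1 fit, and 0 to 1 with a replicate left out. In PD-1cKO tumors it was 2 as reported, 0 with no filter, 1 centred on the S-phase list, 5 with all tumor groups in 1 fit, 0 with the identifier run as a covariate, 0 without tumors 4 and 8 together on either scale, and 0 to 4 with a replicate left out. Against cultured cells it was 5 as reported, 4 on the median-of-ratios scale, 2 centred on the S-phase list, 1 with all tumor groups in 1 fit and 2 to 5 with a replicate left out. For most of these alternatives the share of all genes called is not given. A changed count of members is therefore not shown to be particular to them. Without a filter 29162 genes are adjusted for in place of 15075 in the PD-1cKO comparison. The other causes were not tested.

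Replicate numbers did not pair the samples, since the labels tie them to nothing shared and the correlations of same-numbered samples were -0.209 to 0.16, over 0.1 for 1 of 5 numbers after 1 dose, 0 of 5 after 2 doses and 1 of 10 in PD-1cKO tumors, where 1, 0 and 0 samples went best with their own number. With the replicate block, 0 genes were called after 2 doses, 0 in PD-1cKO tumors and 2 against cultured cells, and the Pole minus Pold1 difference in PD-1cKO tumors stayed at -0.75 with an adjusted p of 0.139. That difference was -0.49 without tumors 4 and 8 (adjusted p = 0.106).

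Signs turned as follows, in values that were not called except Pole against cultured cells and Pold1 in the S-phase-centred PD-1cKO fit. After 1 dose the median-of-ratios scale gave -0.21 for Mlh3, -0.15 for Msh6, -0.11 for Exo1, -0.15 for Pole and -0.066 for Pold1. On that scale without isotype tumor 1 they were -0.078 for Msh6, -0.15 for Exo1, -0.11 for Pole and -0.31 for Pold1. Median-of-ratios also gave -0.011 for Mlh3 at baseline and, without tumors 4 and 8, 0.14 for Pold1. Centring on the S-phase list, which itself had lower medians in tumors, gave after 1 dose -0.072 for Mlh3, -0.0038 for Msh6 and -0.0021 for Pole. After 2 doses it gave 0.16 for Msh6, 0.17 for Pms2, 0.15 for Exo1 and 0.023 for Pold1. In PD-1cKO tumors it gave 0.57 for Mlh3, 0.27 for Msh3 and 0.60 for Pold1, and against cultured cells 0.15 for Msh3, 0.046 for Pole and 0.20 for Pold1. At baseline it gave -0.068 for Mlh3, -0.026 for Pole and -0.031 for Pold1, and for the difference between models -0.12 for Mlh3, -0.34 for Msh3 and -0.023 for Pole.

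With a replicate left out, the values after 1 dose ran from -0.024 to 0.096 for Mlh3, -0.11 to 0.20 for Msh6, -0.30 to 0.063 for Pms2, -0.18 to 0.32 for Exo1, -0.14 to 0.23 for Pole and -0.34 to 0.37 for Pold1. At baseline they ran from -0.082 to 0.16 for Mlh3, -0.016 to 0.19 for Pole and -0.094 to 0.20 for Pold1, and for the difference between models from -0.13 to 0.042 for Pold1. Pole minus Pold1 ran from -0.27 to 0.20 after 1 dose and from -0.059 to 0.078 at baseline. Over all fits that left out no single replicate, 247 fold changes kept their direction and side of the threshold, 28 kept the direction but were no longer called, 3 became called and 30 turned sign.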
